A study of Homo sapiens with 4 samples.

Results

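The kinesin motor genes were taken as the protein-coding genes of GENCODE version 44 whose symbol is KIF followed by a number and, in some, a letter. This rule gave 39 of 20033 protein-coding genes, of which 14 act mainly in mitosis or cytokinesis, 13 mainly carry cargo along microtubules, and 12 belong to neither class. The related motors named KIFC1, KIFC2, KIFC3 and CENPE do not match the rule and are described with the partner genes. m6A, a methyl group on adenosine in RNA, was mapped in OE-19 cells, a line from an adenocarcinoma of the esophagogastric junction, by sequencing RNA fragments pulled down with an antibody to m6A. The 2 immunoprecipitated samples (replicates 1 and 2) each had a peak list, the 2 input samples were not analysed here, and all samples came from the same untreated line, so no treatment or genotype was compared. The study calls the replicates biological and the labels do not say whether they were separate cultures, and without expression values the line could not be checked against marker genes. The lists hold 24607 peaks in replicate 1 and 19318 in replicate 2 but no read numbers, so the depth is unknown and the precision rests on how many peaks there are.

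Kinesins are motor proteins that use ATP to move along microtubules or to take them apart. Mitotic members build the spindle, align chromosomes and organise the midzone where the cell divides, and transport members carry vesicles, organelles and ciliary components. m6A is written by the METTL3-METTL14 methyltransferase at adenosines in short motifs such as GGAC, and in most cells it is concentrated near stop codons and in long exons, away from splice junctions.

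The sequences below are the candidate m6A motifs under the strongest shared peaks of the 10 kinesins with the highest enrichment in both replicates. Each line holds 29 bases of hg38 on the strand of the gene, 5′ to 3′, and the capitals mark the motif nearest to the midpoint of the summits within the stretch covered by the peaks of both replicates. GGAC was printed where that stretch held it, and otherwise another of the 4 motifs searched, which besides GGAC were AAAC and AGAC as well as GAAC.
KIF13A: aatcactgtgcaGGACtggctcatgttca
KIF26A: cccggaaaccgaGGACtgcctctgccacc
KIF20B: agagcgctttcaGAACttacacaaggtgt
KIF24: taaggggcccgtGGACtggagcagagaga
KIF26B: gcacgcgggcaaGGACggcaccatgcccc
KIF21B: gctggtctcctgGGACctgaacagtctgt
KIF1B: aaatcagttactGGACaaacttgaaatca
KIF3B: cattccatatcgGGACtcaaagcttacca
KIF16B: tcacatttgacaAGACtctaaggaggaga
KIF3C: ataccatgcaggGGACctgggtggagccc

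Of these 10 stretches, 8 held GGAC, and those of KIF20B and KIF16B held 0 copies of it but 10 and 12 copies of the other motifs. The stretches run from 173 nt (KIF26B) to 1255 nt (KIF24), and no such count is given for other shared peaks. The 8 of 10 is therefore no measure of enrichment for GGAC. A motif under a peak is a match of letters, and a peak does not show which adenosine carries the methyl group. The KIF13A window lies in the last exon, exon 40, at chr6:17764428-17764456 on the minus strand, and its motif adenosine is 13 nt from the summit of replicate 1 and 19 nt from that of replicate 2. The KIF26A window is in exon 12 at chr14:104176420-104176448 (plus strand), 111 and 125 nt from the summits, and the KIF20B window in exon 20 at chr10:89738280-89738308 (plus strand), 5 and 17 nt from the summits. Both exons are internal and entirely coding. The KIF24 window is in exon 11 at chr9:34256840-34256868 (minus strand), 24 and 34 nt from the summits, and the KIF26B window in exon 12 at chr1:245688068-245688096 (plus strand), 5 and 30 nt from them. The KIF3B window lies in exon 2 at chr20:32310644-32310672 (plus strand), 61 and 56 nt from the summits, and the KIF3C window in exon 1 at chr2:25981576-25981604 (minus strand), 32 and 51 nt from them. The windows of KIF13A, KIF26A, KIF20B, KIF24, KIF26B, KIF3B and KIF3C are all in coding sequence. The KIF16B window is in the last exon, exon 23, at chr20:16367138-16367166 (minus strand), 22 and 5 nt from the summits, and crosses the stop codon. The KIF1B window is in exon 21 of a shorter transcript at chr1:10304646-10304674 (plus strand) and begins within the stop codon. The KIF21B window is in exon 35 at chr1:200971657-200971685 (minus strand), and the motifs of both genes are in a 3′ UTR. Their motifs are 51 and 94 nt from the summits in KIF21B and 275 and 35 nt in KIF1B, so that in KIF26A, KIF21B and KIF3B the motif printed lies over 50 nt from both summits.

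An exonic peak was counted for a gene when the peak's summit, its highest point, lay in an exon of that gene. By this count 22 kinesins had an exonic peak in replicate 1 (42.4% of all protein-coding genes did), 19 had one in replicate 2 (34.1% of all protein-coding genes), and the same 19 had one in both. The share with a peak in both lists was 48.7% of kinesins against 33.4% of all protein-coding genes, and the share with a peak in either list was 56.4% against 43.2%. Kinesins are long genes, with a median exonic length of 6576 nt against 4418 nt over all protein-coding genes, and longer genes carried peaks more often. When all protein-coding genes were put into 10 bins of exonic length and the bins weighted as the kinesins fall into them, 43.6% of genes had a peak in both lists and 54.3% in either. The share of kinesins is therefore close to that of genes of their length, and no test was run, since genes are not replicates. In the bin of the longest genes 5 of 10 kinesins had a peak in both lists against 51.1% of genes, and in bin 8 it was 4 of 8 against 46.7%.

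**Figure D1:**
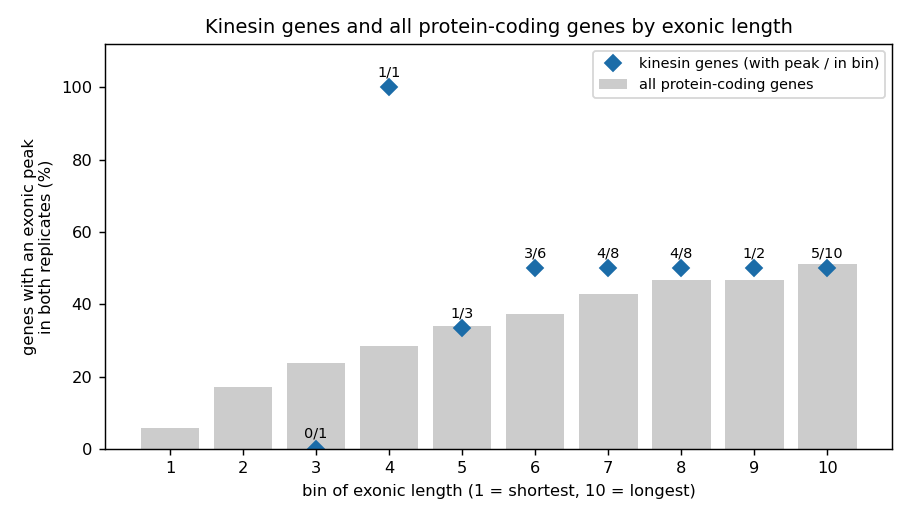
Percent of genes with an exonic m6A peak in both replicates (vertical axis) by bin of exonic length, from the shortest to the longest genes (horizontal axis). Grey bars are all protein-coding genes and run from 5.88% in the shortest bin to 51.1% in the longest, and blue diamonds are kinesins, labelled with the number with a peak over the number in the bin, 5 of 10 in the longest.

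Mitotic kinesins had a peak in both lists in 6 of 14 genes (42.9%), where genes of the same length had one in 39.3% of cases. Transport kinesins had one in 7 of 13 genes (53.8%), where genes of the same length had one in 47.1%. Transport kinesins are the longer genes, with a median exonic length of 8578 nt against 4999 nt for mitotic kinesins. The remaining class had a peak in both lists in 6 of 12 genes (50%, with 44.6% in genes of the same length). The mitotic and transport counts are thus 1 gene apart, and each share is within 7 percentage points of the genes of its length. When only peaks with a fold enrichment of 5 or more were counted, they were further apart, with a peak in both lists in 1 of 14 mitotic kinesins (7.14%) and in 6 of 13 transport kinesins (46.2%), against 19.3% of all protein-coding genes. That 19.3% was not matched for length, and the transport kinesins are the longer genes. Whether this gap goes with length was not tested. It also depends on the cutoff, since KIF18A (4.85 in replicate 1) and KIF4A (4.86 in replicate 2) fell just short in 1 list each. KIF14 (3.94 in replicate 1), KIF18B and KIF20A were further below it.

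Among the families, kinesin-3 had a peak in both lists in 6 of 7 members (KIF1B, KIF1C, KIF13A, KIF13B, KIF14 and KIF16B). The kinesin-3 member without a peak was KIF1A, the neuronal carrier of synaptic vesicle precursors. Both kinesin-11 members, KIF26A and KIF26B, had peaks in both lists, and in kinesin-1, the conventional cargo carriers, 0 of 3 members did. Of the 7 kinesin-3 genes, 4 are in the bin of the longest genes, where 51.1% of all genes had a peak in both lists, and the others are in bins 8 and 9, where 46.7% did. KIF26B, KIF5A and KIF5C are also in the longest bin, KIF26A is in bin 8, and KIF5B is in bin 7, where 42.7% did. Families hold 1 to 7 genes here, so these counts are given as a description.

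The strongest peak of a kinesin with a peak had, at the median, a fold enrichment of 7.23 (replicate 1) and 6.74 (replicate 2), against 6.90 and 5.70 over all protein-coding genes with a peak. In replicate 1 the order turned when only peaks with a q of 1e-05 or less were used (7.23 against 7.36) and when all exonic peaks were taken rather than the best of each gene (4.69 against 5.18). In replicate 2 the kinesin median was the higher in both cases (6.84 against 5.98, and 5.06 against 4.70). Fold enrichment is the ratio of the signal at the summit over the local background of the peak caller, so it is not a fraction of methylated molecules. The medians were 3.94 and 5.51 for mitotic kinesins, 7.92 and 6.95 for transport kinesins, and 8.46 and 7.98 for the remaining class. Mitotic kinesins with a peak are therefore on the low side in replicate 1, where 6 of their 7 best peaks fell under the median of all genes, KIF20B being the exception. Kinesins with a peak held 2.82 exonic peaks each on average in replicate 1 and 2.16 in replicate 2, against 2.28 and 1.84 over all genes with a peak. The medians were 2 for both sets in replicate 1, and 2 against 1 in replicate 2. These numbers were not matched for length, and kinesins are the longer genes.

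**Figure D2:**
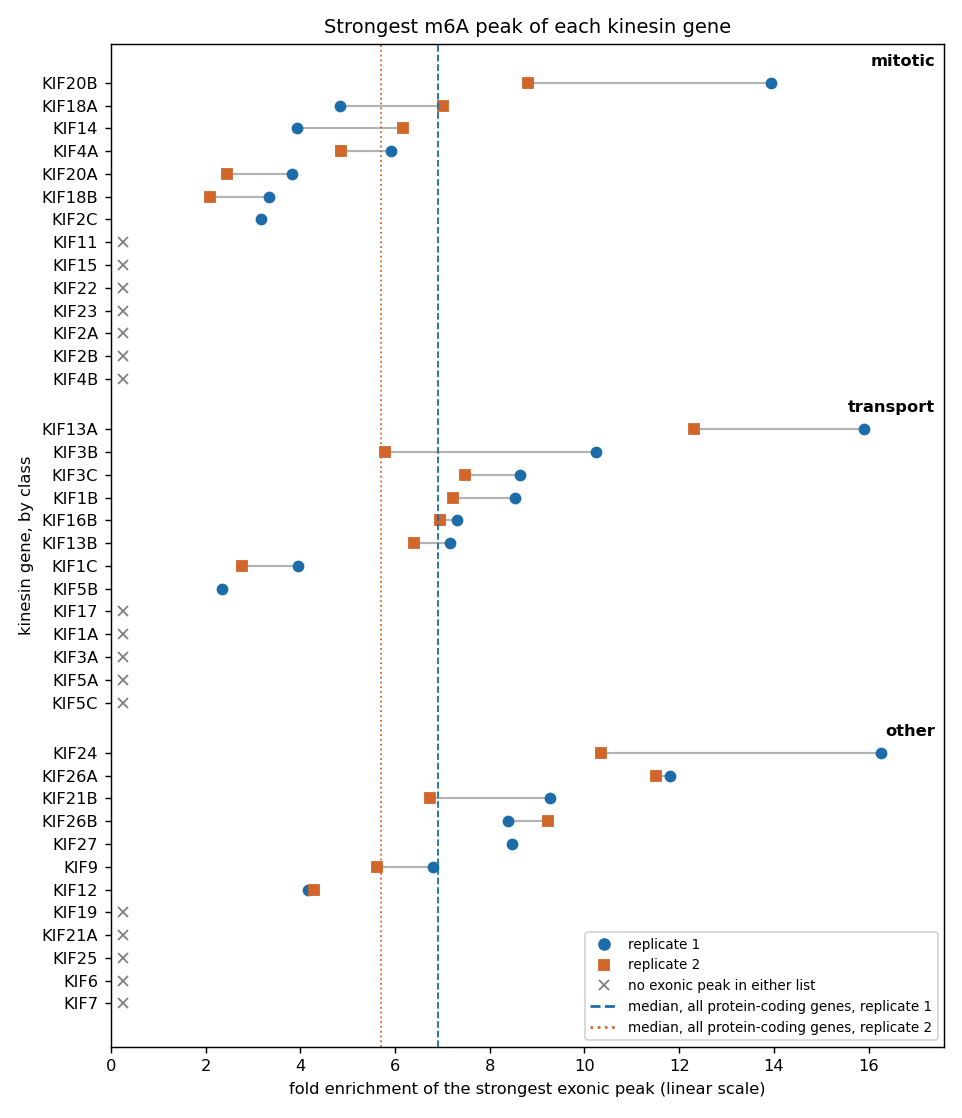
Fold enrichment of the strongest exonic peak (horizontal axis, linear) of each of the 39 kinesins, by class, with replicate 1 as blue circles, replicate 2 as orange squares and a cross for the 17 genes with no exonic peak in either list. The vertical lines are the medians over all protein-coding genes with a peak (6.90 in replicate 1 and 5.70 in replicate 2), and KIF24 and KIF13A reach 16.3 and 15.9 in replicate 1.

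Among the mitotic kinesins, KIF20B, a plus-end directed motor needed for the completion of cytokinesis, had the highest enrichment. Its strong peak reached 13.9 in replicate 1 and 8.80 in replicate 2, with the summits at codons 1153 and 1146 of 1820. A further summit lay at codon 848 in replicate 1 (5.06, not shared) and at codon 927 in replicate 2 (6.15, within the span of the strong peak of replicate 1). Both summits of replicate 2 and the strong summit of replicate 1 were in exon 20 of 33, an internal exon of 1231 nt.

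KIF18A, which dampens chromosome movements at the metaphase plate, had a single peak per list, at 4.85 in replicate 1 and 7.01 in replicate 2. The summits were at codons 746 and 751 of 898, in exon 14 of 17, which is 448 nt long. KIF14, which works with citron kinase in cytokinesis, had peaks of 3.94 and 6.16 in exon 2 (1227 nt). It also had a peak of 4.30 near the end of its coding sequence in replicate 2 alone. KIF18A and KIF14 were the 2 mitotic kinesins whose enrichment was higher in replicate 2.

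KIF18B, which controls the length of astral microtubules, held 8 exonic peaks in replicate 1, more than any other kinesin, and 2 in replicate 2. Its values in replicate 1, from the 5′ to the 3′ end, were 2.80, 2.94, 2.06, 3.33, 2.77, 2.92, 2.93 and 2.78. The 2 peaks of replicate 2, at 2.10 and 2.08, overlapped the fifth and the seventh of these, in exon 13 (553 nt) and just past the stop codon. The other 6 were found in replicate 1 alone. Each of the 10 values was under the median of the best peaks of all genes.

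KIF4A, a chromokinesin that also sets midzone length, had a peak in its 3′ UTR, 160 and 175 nt past the stop codon, at 5.91 and 4.86. KIF4B, its near-identical intronless copy, had none, and reads of this pair may be split between them, so both calls are uncertain. KIF20A, which brings the chromosomal passenger complex to the midzone, had a peak near its stop codon at 3.83 and 2.45. KIF2C, a microtubule depolymerase at centromeres, had a peak of 3.17 in replicate 1 alone, with the summit 39 nt past the stop codon.

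No exonic peak was found in either list for KIF11, which pushes the spindle poles apart, its partner KIF15, the chromosome arm motor KIF22, the centralspindlin subunit KIF23, or the depolymerases KIF2A and KIF2B. Without expression values, a gene that is not transcribed in these cells cannot be told apart from a transcript without m6A, and this holds for every kinesin without a peak.

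Among the transport kinesins, KIF13A, a carrier of recycling endosomes and of mannose 6-phosphate receptors, had the highest enrichment, 15.9 in replicate 1 and 12.3 in replicate 2. These summits lay 6 bp apart at codons 1731 and 1729 of 1845, in the last exon of 837 nt. Its weaker peak, at 5.68 and 5.45, was in the 3′ UTR of a transcript with another last exon, 247 and 222 nt past that stop codon. The best peak of KIF13A ranked above 95.4% of the best peaks of all protein-coding genes in replicate 1 and above 95.2% in replicate 2.

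KIF13B, the paralogue of KIF13A, held 4 peaks in replicate 1 and 2 in replicate 2. The shared pair near the stop codon had values of 6.33 and 6.40 with the summits at the same base, codon 1790 of 1826. The shared pair in exon 39 (697 nt) had 7.16 and 3.38. A peak of 6.40 in the first exon and one of 3.16 in the 3′ UTR were in replicate 1 alone. Both paralogues thus had a shared summit in the coding part of the last exon, far from the N-terminal motor domain.

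KIF16B, which moves early endosomes, held 6 peaks in replicate 1, at 7.30, 4.07, 4.51, 6.34, 7.0 and 2.28 from the 5′ end. Replicate 2 held 4, at 4.29, 3.60, 3.14 and 6.95. The pair at the stop codon, 7.0 and 6.95, was nearly equal in the 2 lists. The first 2 peaks of replicate 1 lie in exon 20 (1359 nt), and a single peak of 1118 bp overlaps both in replicate 2. The sixth, at the stop codon of a shorter transcript, was not shared.

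Heterodimeric kinesin-2 pairs KIF3A with KIF3B or KIF3C, and the pair with KIF3B drives intraflagellar transport. KIF3B had 5 exonic peaks in each list, at 6.42, 10.2, 3.09, 2.50 and 6.05 in replicate 1 and at 5.06, 5.79, 2.80, 2.85 and 3.45 in replicate 2. Its strongest summits were 5 bp apart in exon 2, of 1469 nt, at codons 314 and 313 of 747. The peak of 6.42 at the end of the first exon overlaps a peak of replicate 2 whose summit is 14 bp away in the intron, at 6.31. All 5 peaks of KIF3B in replicate 1 were thus shared.

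KIF3C had peaks of 8.63, 4.66 and 7.56 in replicate 1 and of 5.61 and 7.48 in replicate 2. The shared peaks are in the first exon, of 2125 nt, and the order of the pair differed between the lists. The peak of 7.56 in the 3′ UTR was in replicate 1 alone. KIF3A, which pairs with either, had no peak, and its last exon is 4052 nt long.

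KIF1B, which carries mitochondria and synaptic vesicle precursors through different isoforms, had peaks of 6.16, 8.53 and 5.64 in replicate 1. In replicate 2 it had 5, at 3.97, 6.23, 4.28, 7.23 and 3.91. The strongest lie in the last exon (exon 21, 5435 nt) of a shorter isoform, around its stop codon, and the peak of 8.53 in replicate 1 overlaps those of 4.28 and 7.23 in replicate 2. The pair of 5.64 and 3.91 is in the 3′ UTR of a longer isoform, 1716 and 1843 nt past its stop codon. The peak of 3.97 in the first exon was in replicate 2 alone.

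KIF1C, a carrier between Golgi and cell periphery, had peaks of 2.16, 3.46, 3.96, 2.66 and 3.42 in replicate 1 and of 2.19 and 2.77 in replicate 2. The shared peaks, 3.46 with 2.19 and 3.96 with 2.77, lie in exon 22 and at codons 1023 and 1034 of 1103. The other 3, in the 5′ UTR and past the stop codon, were in replicate 1 alone. KIF5B, the conventional kinesin of most tissues, had a single peak of 2.35 in its 5′ UTR in replicate 1, weaker than the best peak of all but 2.57% of genes. The neuronal carriers KIF1A, KIF5A, KIF5C and KIF17, the last of them also a ciliary motor, had no peak.

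In the remaining class, KIF24, a depolymerase that keeps centrioles from forming cilia, had 3 peaks in each list and all were shared. From the 5′ end they had 16.3, 5.23 and 11.5 in replicate 1 and 6.91, 4.05 and 10.3 in replicate 2. The first is in exon 2 (648 nt) and had the highest value of any kinesin peak in replicate 1, where it was 1.24 higher than in replicate 2 on the log2 scale. The third is in exon 11 (2247 nt), with summits 10 bp apart, and was close to equal in both lists.

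KIF26A and KIF26B are atypical members thought to bind microtubules without ATPase activity. KIF26A had 1 peak per list, at 11.8 and 11.5 with the summits 14 bp apart, in exon 12 of 2917 nt. KIF26B had peaks of 4.73, 3.82, 3.93 and 8.38 in replicate 1 and of 5.59 and 9.23 in replicate 2. The shared pairs of KIF26B, 3.93 with 5.59 and 8.38 with 9.23, are in exon 12, of 3403 nt. Both paralogues thus had their strongest shared peak inside this long coding exon.

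KIF21B, which slows microtubule growth in lymphocytes and neurons, held 6 peaks in replicate 1, at 3.57, 3.15, 2.72, 9.26, 4.65 and 4.81, and 2 in replicate 2, at 3.53 and 6.74. The shared pair, 9.26 and 6.74, lies in the 3′ UTR, 1903 and 1946 nt past the stop codon. No other peak of KIF21B was shared. Its paralogue KIF21A had none.

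KIF9, a motor of the ciliary axoneme, had a shared peak of 6.79 and 5.62, but this peak lies in the last exon of a non-coding KIF9 transcript and also under an exon of KIF9-AS1 on the other strand. The lists carry no strand, so the gene of origin is uncertain. A further peak of KIF9 in coding exon 3, at 5.48, was in replicate 1 alone. KIF12 had a peak near its stop codon at 4.16 and 4.29. KIF27, a ciliary paralogue of KIF7, had a peak of 8.46 in replicate 1 alone, at codon 1302 of 1401. No exonic peak was found for KIF7, a ciliary regulator of Hedgehog signalling, for KIF6 and KIF19, both motors of motile cilia, or for KIF21A and KIF25.

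Of the 62 exonic kinesin peaks of replicate 1, 37 (59.7%, 95% Wilson interval 47.3 to 71.0) overlapped a peak of replicate 2 by at least 1 bp. In the other direction it was 38 of 41 (92.7%, 80.6 to 97.5). Over all exonic peaks the shares were 60.2% and 95%, so the kinesin peaks were found again about as often as others. The intervals cover the counting of peaks only, and several peaks of a gene are not independent. The 35 pairs of kinesin peaks that overlap each other best had a median log2 ratio of replicate 1 to replicate 2 of 0.33, and 26 of them (74.3%) were higher in replicate 1. Over the 10853 pairs of all protein-coding genes the median was 0.44 and the share 80.6%, so the same offset was seen over the lists as a whole. The summits of a kinesin pair lay a median of 40 bp apart, against 26 bp for all pairs.

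**Figure D3:**
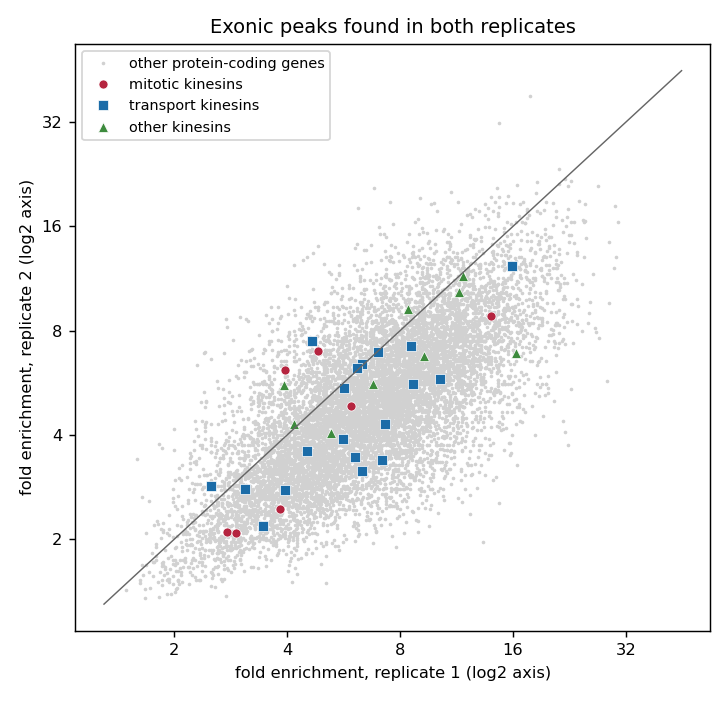
Fold enrichment in replicate 1 (horizontal axis) and replicate 2 (vertical axis), both on log2 axes, of exonic peaks found in both replicates. Red circles are mitotic, blue squares transport and green triangles other kinesins, 35 pairs in all, over the 10853 pairs of protein-coding genes in grey. The line marks equal values, and 26 of the 35 kinesin pairs lie below it.

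Regions were set on the transcript with the longest coding sequence of each gene. This placed 53 summits of replicate 1 and 32 of replicate 2, and left out 9 in each list that lie in other transcripts, those of KIF1B among them. Coding sequence more than 200 nt from the stop codon held 62.3% of the kinesin summits in replicate 1 and 71.9% in replicate 2, against 48.8% and 47.7% over all protein-coding genes. It also makes up 63.7% and 65.1% of the transcript length of these kinesins, against 43.9% and 43.7% for all genes with a peak. The window reaching 200 nt to either side of the stop codon held 18.9% and 21.9% of the kinesin summits, in 6.68% and 6.56% of their length. For all genes this window held 24.6% and 27.2% of the summits, in 9.29% and 8.79% of the length. The 3′ UTR beyond it held 9.43% and 6.25% of the kinesin summits in 26.2% and 25.1% of their length. Over all genes this part held 17.9% and 19.6% of the summits, in 41.5% and 42.3% of the length. Summits of KIF13A, KIF1B and KIF21B in the 3′ UTR of another transcript are among those left out in each list. The kinesin shares for the 3′ UTR do not count them. Relative to length, summits were thus over-represented at the stop codon to a similar degree in kinesins and in all genes. Most of the other kinesin summits placed on these transcripts were in coding sequence.

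**Figure D4:**
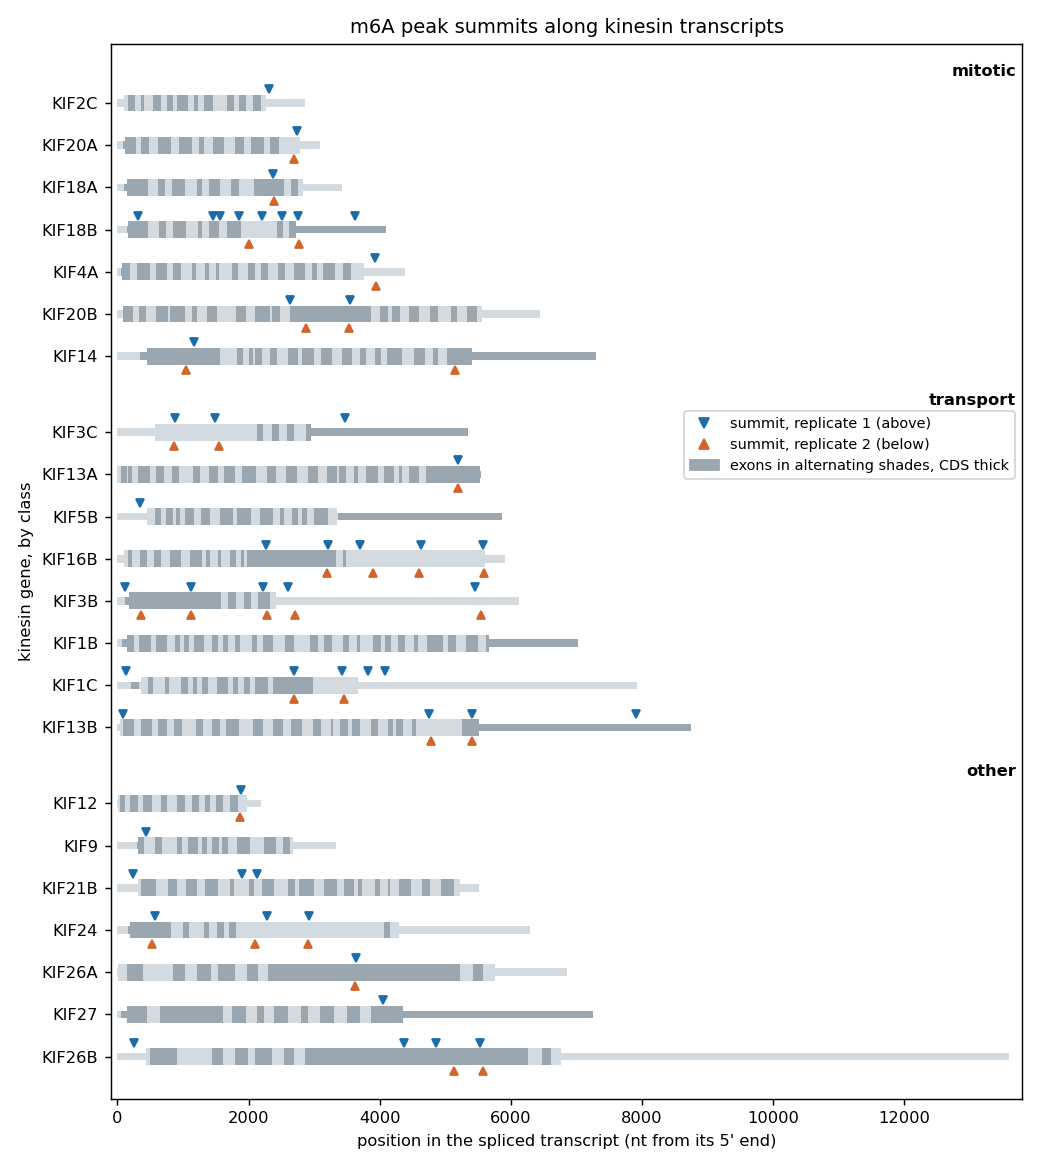
Exonic summits along the spliced longest-coding transcript of the 22 kinesins with a peak (horizontal axis, nt from the 5′ end), with exons in alternating shades, coding sequence thick and UTRs thin. Blue triangles above are replicate 1 and orange triangles below are replicate 2, and the 9 summits per list that fall in other transcripts are not drawn, so that KIF1B shows none. In KIF20B, KIF24, KIF26A, KIF26B and KIF3B the strongest shared summits lie inside a wide block, a long coding exon.

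Exons over 400 nt held 71.7% of the kinesin summits in replicate 1 and 93.8% in replicate 2, although they make up 51.3% and 51.4% of the transcript length of these genes. Over all genes the shares were 74.5% and 88.5%, in 66.8% and 69.2% of the length. Outside the last exon, 20 of 34 kinesin summits of replicate 1 (58.8%) and 18 of 19 of replicate 2 (94.7%) were in exons over 400 nt. Over all genes it was 51.1% and 74.3%. Such exons make up 26.5% and 27.7% of the length of the kinesin transcripts outside the last exon, against 27.5% and 30.7% over all genes with a peak.

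Having seen these values, the kinesins were divided by whether the same transcript has an exon over 400 nt other than the last one. Of the 18 that have one, 12 (66.7%) had a peak in both lists, and in all 12 a summit lay in such an exon in both replicates. The 12 were KIF13B, KIF14, KIF16B, KIF18A, KIF18B, KIF1C, KIF20B, KIF24, KIF26A, KIF26B, KIF3B and KIF3C. Of the 21 that have none, 7 (33.3%) had a peak in both lists. Genes with 1 exon, among the kinesins KIF2B and KIF4B, cannot have such an exon and count as having none, over all genes too. Exonic length was alike, with medians of 6675 and 6576 nt. Genes of the same lengths as these 2 groups had a peak in both lists in 44.6% and 42.7% of cases. Over all protein-coding genes the shares were 49.0% of 6412 genes with such an exon and 26.0% of 13621 without. Those with such an exon are longer, with medians of 5855.5 and 3834 nt, and genes of the same lengths had a peak in both lists in 38.6% and 30.9% of cases. Over all genes, 2277 of the 3140 genes with such an exon and a peak in both lists had a summit in it in both. Among the mitotic kinesins all 4 with such an exon (KIF14, KIF18A, KIF18B and KIF20B) had a peak in both lists, against 2 of 10 without. Among the transport kinesins it was 5 of 8 with such an exon and 2 of 5 without, and in the remaining class 3 of 6 in either case. Those with such an exon and no peak in either list were KIF17, KIF25, KIF5C and KIF7. This division was chosen after the values were seen and is a description.

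Few kinesin summits were near splice junctions. The median distance to the nearest junction was 250 nt in replicate 1 and 358 nt in replicate 2, and 22.6% and 6.25% of the summits were within 100 nt of one. Of the length of these transcripts, 50.7% and 50.6% lies within 100 nt of a junction. Over all genes 19.2% and 8.75% of the summits were this close, in 34.3% and 32.3% of the length. In the first 300 nt of the transcript there were 5 of 53 kinesin summits in replicate 1, 1 of them shared, and 0 of 32 in replicate 2, where a count of 0 allows a share of up to 9.38% (3 counts of 32; the upper Wilson bound is 10.7%). Over all genes 12.8% and 6.80% of the summits lay there. The early peaks of KIF13B, KIF1C, KIF21B and KIF26B were the ones not found again. KIF1B is not in these counts, and its 5′ UTR peak in replicate 2, 136 nt into the first exon of a longer transcript, was not shared either.

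GGAC was present within 50 nt of 22 of 62 kinesin summits in replicate 1 (35.5%, 95% Wilson interval 24.7 to 47.9) and of 17 of 41 in replicate 2 (41.5%, 27.8 to 56.6). Over all exonic summits of protein-coding genes it was 49.7% and 51.7%. Its reverse complement GTCC, searched on the same strand, was near 27.4% and 31.7% of the kinesin summits, against 31.5% and 29.5% over all. The printed windows of KIF20B and KIF16B hold GAAC and AGAC. When any of the 4 motifs was counted within 50 nt of the summit, the share was 87.1% and 87.8% for kinesins and 84.3% and 87.2% over all. Most such windows thus hold a motif in either set, and no count of the reverse complements is given. The near-equal shares therefore say little about methylation. The mean GC content of the same windows was 57.4% and 55.0%, against 57.8% and 56.1% over all. The intervals for GGAC at kinesin summits end below the value over all summits in replicate 1 and include it in replicate 2, and the peaks of 1 gene are not independent. Per 1 kb of transcript, kinesins with a peak in both lists had a median of 3.85 GGAC (1.37 to 7.74) and those with no peak 3.41 (1.26 to 8.85). The 3 with a peak in replicate 1 alone had a median of 2.22. The ranges overlap widely, and no value over all genes is given.

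The partners of the motors were counted in 3 lists. Of 17 other kinesins and kinesin partners, 8 had a peak in both lists (47.1%, with 41.2% in genes of the same length). KIFC1, a minus-end directed motor that focuses spindle poles, had 5.35 in replicate 1 and 4.28 in replicate 2, and CENPE, which moves chromosomes to the spindle equator, had 4.18 in replicate 1 alone. PLEKHM2, which links kinesin-1 to lysosomes, had 11.3 and 6.22. KLC1, a cargo-binding light chain of kinesin-1, had 5.73 and 3.58, and KIFAP3, the third subunit of kinesin-2, had none, as KIF3A did. Of 20 genes of dynein, the motor for the opposite direction, and of its activators, 9 had a peak in both lists (45%, with 40.1% in genes of the same length). The strongest were NDE1 with 16.6 and 13.1, BICD2 with 12.4 and 6.27, and DCTN5 with 11.3 and 7.20. In this list 9 genes, DCTN1 and DCTN2 among them, had no exonic peak in either replicate. Of 18 spindle and midzone partners, 7 did (38.9%, with 37.7% in genes of the same length). CIT, the citron kinase bound by KIF14, had 10.8 and 7.43, and INCENP, a subunit of the chromosomal passenger complex moved by KIF20A, had 6.31 and 4.40. The other subunits of that complex in the list went the other way. AURKB and BIRC5 had no exonic peak, and CDCA8 had 2.78 in replicate 1 alone. PRC1, which recruits KIF4A to the midzone, RACGAP1, the partner of KIF23 in centralspindlin, and PLK1 had no exonic peak. In each list the share was near that of genes of the same length.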

How the data were processed

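The members, lists and comparisons were chosen with earlier results of these data known. The authors deposited a MACS2 peak list for each immunoprecipitated sample on hg38, with the fold enrichment at the summit as a ratio, the p-value and q-value as −log10, a score that was not used, and the summit offset. Per the labels, the tools were fastp, HISAT2 and MACS2, whereas the methods of the study name TopHat2, and versions and the use of input as control are not given in the sources used here. The labels describe cells fixed with UV light, the methods fragmented total RNA. The lists of replicates 1 and 2 end at a q of 0.0491 and 0.0497. The lists hold no read numbers, so depth is unknown.

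Summits were assigned to exons of GENCODE version 44 with Python 3.11.15 and numpy 2.4.6. Protein-coding genes took precedence, and a summit under several of them counted for each. Length shares used 10 bins of exonic length. Intervals are 95% Wilson intervals (scipy 1.17.1). The assignment was tested on simulated summits. No test between groups was run, since the 2 lists form 1 group. All kinesins are named. Values of every exonic peak are given for the 10 with the highest geometric mean enrichment of a shared pair and for those with 3 or more peaks in a list, and of the best peaks for the others.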

Additional observations from a re-analysis of the deposited data

Results flagged for a closer look

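Intronic summits were outside the counts above. There were 5 in kinesin genes in replicate 1, in KIF18B, KIF22 and KIF7, and 11 in replicate 2, in 10 genes, of 3199 and 3845 intronic summits in all. They are listed because the exon counts do not use them, not because their number is unusual, and no control list was analysed. Of them, 2 in replicate 1 and 3 in replicate 2 overlapped a peak of the other list. A pair near the start of KIF18B (8.94 in replicate 1 and 5.37 in replicate 2) was stronger than every exonic peak of that gene and touches its first exon. A pair in KIF7, which had no exonic peak, had 6.69 and 4.64, with the summits 267 and 453 bp from the nearest exon. The third shared summit of replicate 2 is the KIF3B peak at the end of the first exon. Summits in introns of KIF25 and KIF5C in replicate 2 had the same enrichment (5.71) and were not found in replicate 1.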

How the results depend on the processing

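Of 62 values recomputed under another setting, 49 stayed within the limits set for them. With a fold enrichment of 5 or more, kinesins with a peak in both lists fell to 12 (30.8%, against 19.3% of all genes, not matched for length). Mitotic ones fell to 1, against 6 transport kinesins, and of KIF12, KIF14, KIF18A, KIF18B, KIF1C, KIF20A and KIF4A none remained. Of these, KIF18A (4.85 in replicate 1) and KIF4A (4.86 in replicate 2) fell just short in 1 list each. With 1 list alone the counts were 19 to 22 for all, 6 to 7 for mitotic and 7 to 8 for transport kinesins. KIF20A was lost at a q of 1e-05 or less, and KIF9 when summits under several genes were left out. When any overlap with an exon counted, 21 kinesins had a peak in both lists. KIF2C was gained, and so was a kinesin of the remaining class that is counted above as without an exonic peak. With summits within 100 bp, 45.2% (all exonic peaks 51.1%) and 65.9% (78.0%) were shared, and with overlap of 50% of both peaks 73.2% (79.0%) of replicate 2. With a stop window of 100 nt it held 9.43% (14.6%) in replicate 1. Among shared peaks, 90.3% (87.8%) of replicate 1 were in exons over 400 nt. Over all peaks rather than the best, median enrichment was 4.69 (5.18) and 5.06 (4.70). GGAC was within 25 nt of 19.4% (28.9%) and 24.4% (30.2%), and within 100 nt of 64.5% (71.7%) and 58.5% (73.2%). The causes were not tested. No paired analysis was possible because the input samples have no list here and the 2 immunoprecipitated samples form 1 group. Expression was not used, the depth is unknown, and each list ends at a q of 0.05, so weak or lowly expressed sites can be missed.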
